A study of Nematostella vectensis with 15 samples.

Results

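The most abundant transcripts of the mesenteries of Nematostella vectensis, the starlet sea anemone, were described across 3 culture temperatures. The CPM of a gene, its counts scaled to the same library total of 1000000, was averaged over all 15 libraries, and every gene model with a mean of at least 1000 CPM was taken as a member. This gave 146 of 27527 gene models, or 0.530% of them. The choice therefore rests on the same counts that are described below, and the level of a member is not a finding.

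The libraries came from adult female polyps, all F1 offspring of CH2XCH6, kept in artificial sea water of 16‰ salinity. Polyps were cultured at 15, 20, or 25 °C, with 5 libraries from each temperature, and none of the groups was an untreated control. RNA was taken from the part of the body that holds the mesenteries and was made into stranded libraries of polyadenylated RNA. Nothing states that the libraries of one temperature came from separate cultures or days, so the p-values measure the spread between these libraries, which may be technical, and a culture box or a processing day cannot be told apart from the temperature. All animals were of 1 cross, which limits what the libraries stand for.

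The mesenteries of a sea anemone are sheets of tissue that run from the body wall to the pharynx. They carry the retractor muscles, the gonads, in which the eggs of a female grow, and along their free edge a filament rich in gland cells and stinging cells that serves digestion. Tissues of this kind commonly devote a large share of their messenger RNA to few products, because secretion, egg growth, and the machinery of translation each draw on a small set of genes. The identifiers of the gene models are not paired with gene names here, as 0 of the 27527 matched the 38762 genes of the reference table, so no function is given to a member and the labeled tissue was not checked against marker genes. Members are called by their abundance rank, from rank 1 at 46784 CPM to rank 146 at 1009 CPM, with the scaffold position of their model.

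Total counts ran from 3526175 to 22160961 per library, and the median was 7727786 for the 15 °C libraries, 14234219 for 20 °C, and 11095025 for 25 °C. Counting error was small for the members, whose lowest count in any library was 856. Libraries 3 and 4 of the 15 °C group stood apart from the rest in their scaling. Their TMM factors, which rescale a library total so that most genes match between libraries, were 0.881 and 0.874, against 0.959 to 1.09 in the other 13 libraries. They had the highest CPM of the 5 libraries at 15 °C in many members, with both above the other three in 88 of 146 (60.3%, against 8.33% of all 17818 genes tested). Library 3 also had the lowest total of the 15, whereas library 4 had the highest total at 15 °C (9619520). Without this pair only 3 libraries are left at 15 °C. The shares of counts at 15 °C and the calls between 25 and 15 °C are given both with and without the pair below. Other libraries were extreme on the low side. Of the 5 libraries of its temperature, 15 °C library 1 was the lowest in 81 of the 146 members. For 20 °C library 1 this number was 94, and for 25 °C library 5 it was 89. By comparison, 15 °C library 4 was the highest in 88 members and library 3 in 25. The same counts over all genes were not made. These low libraries were left out only 1 at a time.

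The 146 members held 41.5% ± 2.37 of the counts of a library (SD, n = 15), although they were 0.530% of the gene models. Of these, 3 had a mean of at least 10000 CPM, 49 lay between 2000 and 10000, and 94 between 1000 and 2000, with a median of 1655 CPM. Rank 1 and rank 2 together took 11.7% ± 0.953 of the counts at 15 °C, 7.18% ± 1.44 at 20 °C, and 7.27% ± 0.399 at 25 °C (SD, n = 5 each). The 3 members just inside the threshold had means of 1023, 1012, and 1009 CPM, and the 3 genes just outside it had 989, 987, and 986 CPM. A mean of at least 1000 CPM at every one of the 3 temperatures was found in 121 members, at 2 temperatures in 23, and at 1 in 2. Those 25 owe their place in part to the temperatures at which they were high, so their differences are counted apart below. In all, 101 members were over 1000 CPM in every library, and the least steady ones were over it in 7.

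A long transcript yields more fragments than a short one, so levels were compared between genes per length, as TPM, in which counts are divided by the summed exon length and rescaled to the same total in every library. Abundance ranks and shares of counts are by CPM and grow with the length of a model. On the TPM scale rank 2 was the most abundant transcript, at 50502 TPM over 15 libraries. It was followed by rank 16, a model of 1 exon of 198 bp, at 22898 TPM. Rank 1, whose exons sum to 4467 bp, came to 12745 TPM. The annotated exons of ranks 16 and 1 are all coding, whereas rank 2 has 437 bp of untranslated exon. No correction for fragment size was made. The TPM of very short or incompletely annotated models may therefore be too high. Of the 146 members, 105 were also among the 146 models of highest TPM, and 108 had at least 1000 TPM. The member lowest on this scale was rank 121, a model of 31797 bp that stood at place 2168 with 46.6 TPM.

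Relative to all genes tested, the gene models of the members were compact in some ways and long in others. Their median exon length was 1108 bp, against 1281 bp over the 17818 genes tested, and 45.9% were under 1000 bp, against 38.6%. At the other end 12.3% of the members had at least 5000 bp of exon, against 6.36% of the genes tested. Only 2 members (1.37%) had a single exon, against 14.7% of the genes tested, and the median was 5 exons in both. The 1218 genes of 100 to 1000 mean CPM had longer models than the members. Their median was 2243 bp, with 22.1% under 1000 bp and 22.8% of at least 5000 bp. A single exon was found in 4.76% of them, and their median was 9 exons. Of the members, 99 were JGI models and 47 were transcripts assembled with TACO, of which 6 are marked in the deposited annotation as having no reference match. They lay on 112 scaffolds, and neighbors were few, as 2 of the 40 pairs that shared a scaffold lay within 10 kb. The exons of 17 members overlapped those of another model, on the opposite strand in 13 and on the same strand in 5, and the overlapping model had at most 8.49% of the member's counts, without regard to length. The counting is not stated to have used the strand. Under the default settings given in the study's methods, reads that overlap several genes are left out. Members in such overlaps may therefore be undercounted.

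The share of counts held by the members as a group overlapped between all 3 temperatures. It was 39.5, 43.7, 45.3, 45.6, and 42.1% in the 15 °C libraries, 37.1, 39.8, 42.3, 39.4, and 41.8% in the 20 °C libraries, and 42.0, 43.0, 41.4, 40.8, and 38.8% in the 25 °C libraries. The means were 43.2% ± 2.50 at 15 °C, 40.1% ± 2.1 at 20 °C, and 41.2% ± 1.57 at 25 °C (SD, n = 5 each). The highest pair of values came from libraries 3 and 4 at 15 °C, and without them the mean at 15 °C was 41.8% ± 2.12 (SD, n = 3), and 20 °C library 1 was the lowest of all. No test was made of this sum, since its members were chosen from the same counts. The number of genes needed to reach 50% of the counts of a library averaged 239 ± 53.4 at 15 °C, 296 ± 50.1 at 20 °C, and 270.2 ± 37.4 at 25 °C (SD, n = 5 each), with overlapping ranges. Without libraries 3 and 4 the number at 15 °C was 270.0 ± 45.2 (SD, n = 3).

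**Figure D1:**
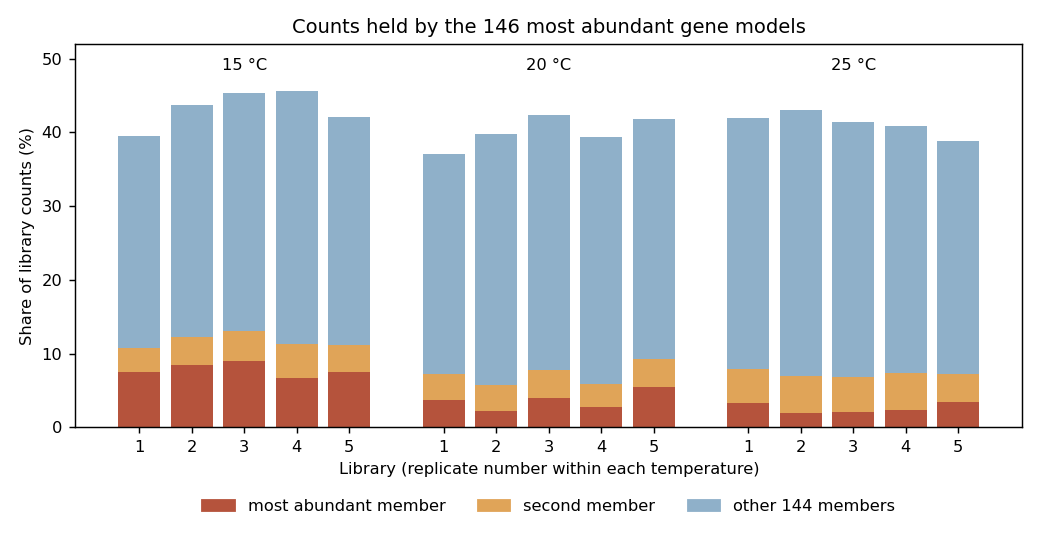
Stacked bars give the share of a library's counts (%) held by the most abundant member, the second, and the other 144 members in each of the 15 libraries, grouped by culture temperature from 15 to 25 °C. The totals lie between 37.1% and 45.6% and overlap between temperatures, whereas the lowest segment is taller in every 15 °C library (6.75% to 8.96%) than in any library at 20 or 25 °C (1.93% to 5.45%).

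Beneath this similar total, the makeup of the group shifted with temperature. Rank 1 held 7.56, 8.44, 8.96, 6.75, and 7.45% of the counts in the 15 °C libraries. It held 3.65, 2.24, 3.96, 2.80, and 5.45% in the 20 °C libraries and 3.25, 1.93, 2.03, 2.30, and 3.40% in the 25 °C libraries. No library at 20 or 25 °C reached the lowest value at 15 °C. In bulk tissue, a change in the number of cells of a type cannot be told apart from a change in RNA per cell for any member. Without rank 1 the members held 35.4% ± 2.50 at 15 °C, 36.4% ± 1.88 at 20 °C, and 38.6% ± 2.06 at 25 °C (SD, n = 5 each). Leaving out libraries 3 and 4 gave 7.82% ± 0.542 for rank 1 and 34.0% ± 1.77 for the other members at 15 °C (SD, n = 3). Between 25 and 15 °C the share of the group differed by -2.05 percentage points, made up of -5.25 points from rank 1 and 3.20 points from the other members, of which 112 had a higher mean CPM at 25 °C. Without libraries 3 and 4 these differences were -0.592 points in all, -5.24 from rank 1 and 4.64 from the others. The count of genes with a higher mean CPM at 25 °C was not made over all genes. Between 20 and 15 °C the corresponding differences were -3.18 points in all, -4.21 from rank 1 and 1.03 from the others. Between 25 and 20 °C they were 1.12 points in all, -1.04 from rank 1 and 2.16 from the others. Shares of one total are bound to each other, so a smaller share of rank 1 leaves more for every other gene. Of the counts that did not belong to rank 1, the other members held 38.4% ± 2.66 at 15 °C, 37.8% ± 1.95 at 20 °C, and 39.6% ± 1.90 at 25 °C (SD, n = 5 each), with overlapping ranges, and 36.9% ± 2.05 at 15 °C without libraries 3 and 4 (SD, n = 3). Per length, as a share of TPM, the group held 44.3% ± 2.60 at 15 °C, 43.4% ± 2.29 at 20 °C, and 45.3% ± 2.16 at 25 °C, with 43.0% ± 2.46 at 15 °C without that pair.

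The single member that moved the most counts was rank 1, a JGI model of 25 exons on scaffold 57 (739636 to 754598, minus strand), whose annotated exons are all coding. It was at 75632, 84397, 89645, 67492, and 74484 CPM in the 15 °C libraries. At 20 °C it was at 36457, 22443, 39579, 28004, and 54538 CPM, and at 25 °C at 32485, 19293, 20345, 22969.5, and 33994 CPM. All 5 libraries at 15 °C lay above all 10 of the others, while the 20 and 25 °C libraries overlapped. By edgeR's quasi-likelihood test, with p-values adjusted by Benjamini and Hochberg over all 17818 genes tested, rank 1 fell between 25 and 15 °C, with a log2 fold change of -1.70 ± 0.23 (SE, adjusted p = 2.25e-05), and between 20 and 15 °C, with -1.18 ± 0.23 (SE, adjusted p = 0.00105). In linear terms it was 3.24-fold lower at 25 °C and 2.27-fold lower at 20 °C, each relative to 15 °C. The difference between 25 and 20 °C was -0.51 ± 0.23 (SE, adjusted p = 0.246) and did not pass. Rank 1 held the most counts of any gene in 5 of 5 libraries at 15 °C, in 3 of 5 at 20 °C, and in 0 of 5 at 25 °C, where rank 2 held the most. Per length, rank 2 was the highest gene in all 15 libraries, and at 15 °C it had 50255 ± 4595 TPM, against 21772 ± 2717 TPM for rank 1 (SD, n = 5 each).

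Rank 2, a JGI model of 5 exons and 956 bp on scaffold 383 (43220 to 45332, minus strand), did not pass the test in any comparison. It had 31604, 38729, 41135, 45506, and 37518 CPM at 15 °C, 36196, 34933, 38224, 30915, and 37709 CPM at 20 °C, and 46173, 50572, 47934, 50470.5, and 39031 CPM at 25 °C. The 25 °C libraries lay above the 20 °C libraries and overlapped those at 15 °C. The log2 fold change was 0.17 ± 0.17 (SE, adjusted p = 0.462) between 25 and 15 °C and 0.39 ± 0.17 (SE, adjusted p = 0.229) between 25 and 20 °C.

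Among the single members, 40 passed the test between 25 and 15 °C at an adjusted p under 0.05, with 19 higher and 21 lower at 25 °C. This was 27.4% of the 146, against 31.7% of all genes tested (15% higher and 16.7% lower). How the 2 shares compare depended on the libraries and the scaling, as given below. Of the 121 members over 1000 CPM at every temperature, 9 rose and 15 fell, and of the 25 that were not, 10 rose and 6 fell. The changes were mostly moderate, with an absolute log2 fold change under 0.5 in 14 of the 40, of 0.5 to 1 in 18, and of at least 1 in 8. The median log2 fold change was 0.16 over the members, positive in 102 of 146, and 0.00 over all genes tested. The CPM of the 2 temperatures did not overlap in 24 members that were higher and 7 that were lower at 25 °C, where 13.5% of all genes tested were higher and 5.56% lower without overlap (19.1% in all). For the 1218 genes of the next abundance class, at 100 to 1000 mean CPM, 40.2% passed and the median was -0.04.

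**Figure D2:**
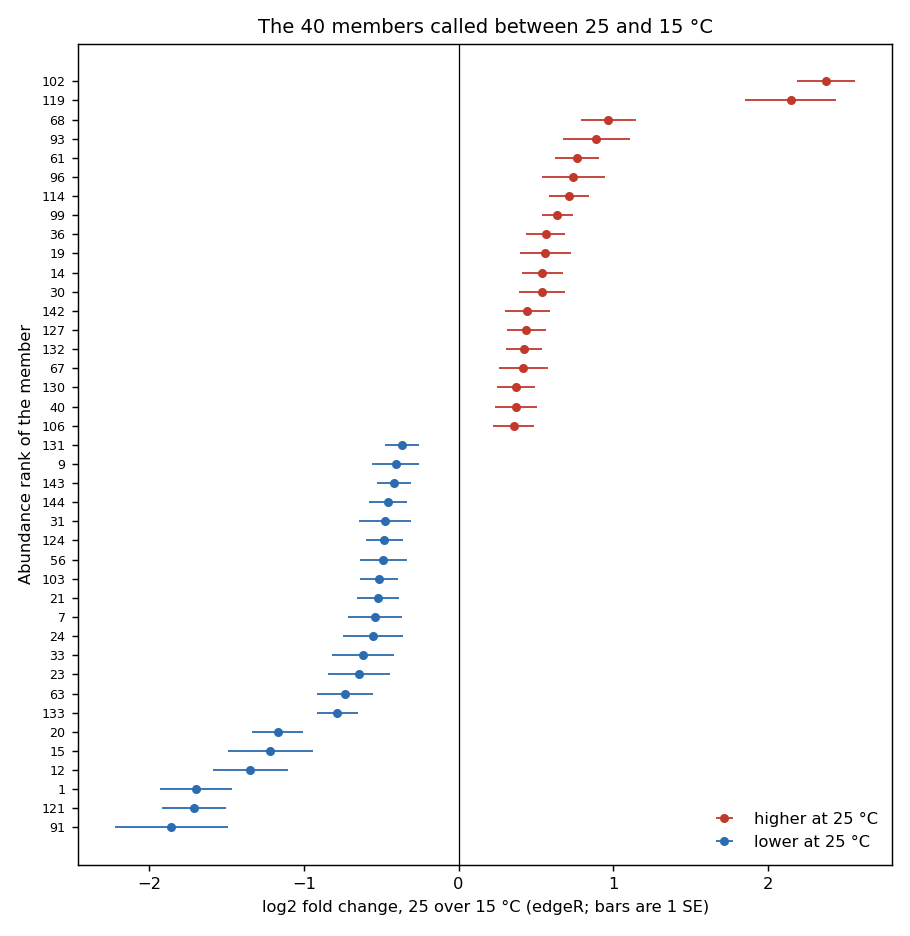
Points give the log2 fold change between 25 and 15 °C of the 40 members that passed edgeR's test, with bars of 1 SE, ordered by size and named by abundance rank on the vertical axis. The 19 members that were higher at 25 °C are led by rank 102 (2.38) and rank 119 (2.15), and the 21 that were lower reach -1.86 at rank 91.

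Between 20 and 15 °C 17 members passed, with 10 higher and 7 lower at 20 °C, or 11.6% against 18.8% of all genes tested (9.66% higher and 9.11% lower). Of the 121 members over 1000 CPM at every temperature 4 rose and 4 fell (6.61%), and of the other 25, whose place rests in part on this contrast, 6 rose and 3 fell. Here 14 members were higher and 3 lower without overlap of the libraries, against a background of 8.74% and 3.31% (12% in all). Between 25 and 20 °C 8 members passed (5.48%, against 3.68% of all genes tested, 1.14% higher and 2.54% lower), and all 8 were lower at 25 °C, 5 of the 121 and 3 of the 25. The median log2 fold change of the members was nevertheless 0.16, positive in 106 of 146, against -0.01 over all genes tested. No member rose by edgeR between 25 and 20 °C. At an unadjusted p under 0.05, 5 members were higher and 14 lower, beside 1197 and 1853 of all 17818 genes tested. DESeq2 also called 0 higher and 10 lower (6.85% of the members), against 1.25% higher and 2.50% lower over all genes. Scaling by the library total alone called 1 higher (0.685%) and 8 lower (5.48%), against 1.02% and 1.84%. Lower calls were thus the more frequent ones over all genes as well. Without overlap of the libraries 6 members were higher and 7 lower, against a background of 2.15% and 3.16% (5.31% in all). The 3 comparisons share libraries, so their calls are not independent. In all 43 members passed in at least 1 comparison and 103 in none. The same count over all genes tested was not made, but it holds at least the 31.7% that passed between 25 and 15 °C alone.

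The calls between 25 and 15 °C depended on libraries 3 and 4 at 15 °C and on the scaling. Without both libraries 84 members were higher (57.5%) and 20 lower (13.7%) at 25 °C, against 16.2% and 16.7% of all 18271 genes tested in that fit, and the median log2 fold change was 0.37 over the members and 0.01 over all genes. The pair was set apart in part by its high CPM in the members, so leaving it out favors higher calls among them. Without library 4 alone 45 (30.8%) and 21 (14.4%) were called, against 17.1% and 17.3% of all genes tested, with medians of 0.28 and 0.02. Without library 3 alone there were 24 (16.4%) and 19 (13%), against 13.9% and 14.5%. In all 71.2% of the members passed without both libraries, against 32.9% of all genes, and 45.2% without library 4, against 34.4%, whereas with every library it was 27.4% against 31.7%. With the library total as the only scaling 57 were higher and 16 lower (50% of the members in all, against 30.5% of all genes tested), which moved the share of higher calls to 78.1%, against 47.5% with TMM factors. Over all genes tested this scaling moved the share of higher calls to 60.7%, against 47.2%. That scaling also shifted the median log2 fold change of all genes tested to 0.08 and that of the members to 0.26. Between 20 and 15 °C it gave 15 higher and 6 lower (71.4% higher, against 58.8%), where the share over all genes tested moved to 65.8%, against 51.5%. Leaving out both libraries gave 19 (13%) and 6 (4.11%) between these temperatures, against 9.38% and 9.82% of all genes tested. No member that was called turned its direction under these settings, and between 25 and 15 °C the higher calls ran from 19 to 84 and the lower calls from 16 to 21. Leaving out each of the 15 libraries in turn gave 30 to 66 calls in both directions together, so some omissions also lowered the number.

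The largest rise was that of NEMVEDRAFT_v1g244806.EDO37728 (rank 102), a JGI model of 4 exons and 14702 bp on scaffold 134 (592435 to 609130, plus strand). It had 1453, 2450.4, 2486, 1472, and 1825 CPM at 25 °C, against 346, 459.9, 243, 344, and 374 CPM at 15 °C. At 20 °C it had 1439, 1789, 1596, 2097, and 1449 CPM. The libraries at 20 and 25 °C overlapped and all 10 lay above every library at 15 °C. The log2 fold change was 2.38 ± 0.19 (SE, adjusted p = 3.17e-08) between 25 and 15 °C, a 5.20-fold difference, and 2.18 ± 0.19 (SE, adjusted p = 1.05e-07) between 20 and 15 °C. Between 25 and 20 °C it was 0.20 ± 0.18 (SE, adjusted p = 0.605). With a mean of 353 CPM at 15 °C, this transcript was a member only through the warmer libraries.

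NEMVEDRAFT_v1g244012.EDO39255 (rank 119), a JGI model of 4 exons and 1164 bp on scaffold 104 (516282 to 521915, minus strand), had the same course. It had 1419.7, 1806, 2119.8, 1883, and 1432 CPM at 25 °C, against 247, 266, 321, 692, and 264 CPM at 15 °C. Library 4 was the highest of the 15 °C libraries and still lay below all others at 20 and 25 °C. At 20 °C it had 1921, 2088, 1255, 1362, and 1434 CPM. The log2 fold change was 2.15 ± 0.29 (SE, adjusted p = 4.80e-05) between 25 and 15 °C, or 4.43-fold, and 2.04 ± 0.29 (SE, adjusted p = 0.000114) between 20 and 15 °C. Between 25 and 20 °C it was 0.11 ± 0.28 (SE, adjusted p = 0.896).

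The largest fall was that of TU57744 (rank 91), a TACO model of a single exon of 817 bp on scaffold 493 (16781 to 17597, minus strand). It had 248, 928, 1078, 546, and 709.6 CPM at 25 °C, against 3493, 2707, 1703, 1755, and 2541 CPM at 15 °C. The 2 groups did not overlap, but the libraries within each spread widely, and the mean SD of log2 CPM within a temperature was 0.63, the largest of the 146 members. At 20 °C it had 575, 1853, 1192, 855, and 1000.4 CPM, which overlapped both. The log2 fold change was -1.86 ± 0.36 (SE, adjusted p = 0.00138) between 25 and 15 °C, a 3.62-fold lower level at 25 °C. Between 20 and 15 °C it was -1.20 ± 0.36 (SE, adjusted p = 0.0292), a call that was lost without any 1 of 6 libraries. The mean of this transcript at 25 °C was under 1000 CPM. Its place among the members thus rests on the other temperatures, and the direction is in part fixed by the choice.

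TU70405 (rank 121), a TACO model of 193 exons and 31797 bp on scaffold 70 (195410 to 300344, plus strand), passed as lower at 25 °C relative to both other temperatures. It had 381, 704, 555, 430.4, and 511 CPM at 25 °C, against 1559, 1509, 1404, 1508, and 2015 CPM at 15 °C. At 20 °C it had 1431, 887, 1926, 1874, and 1614 CPM, and library 2 was the low one there. Every library at 25 °C lay below every library at 15 and 20 °C. Each was also under 1000 CPM, so this transcript was a member only through the cooler libraries, and the direction is in part fixed by the choice. The log2 fold change was -1.71 ± 0.21 (SE, adjusted p = 6.01e-06) between 25 and 15 °C and -1.60 ± 0.20 (SE, adjusted p = 0.00017) between 25 and 20 °C, or 3.27-fold and 3.03-fold lower at 25 °C. Between 20 and 15 °C it was -0.11 ± 0.20 (SE, adjusted p = 0.756). On the same strand 2 JGI models at 0 counts overlap its exons.

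**Figure D3:**
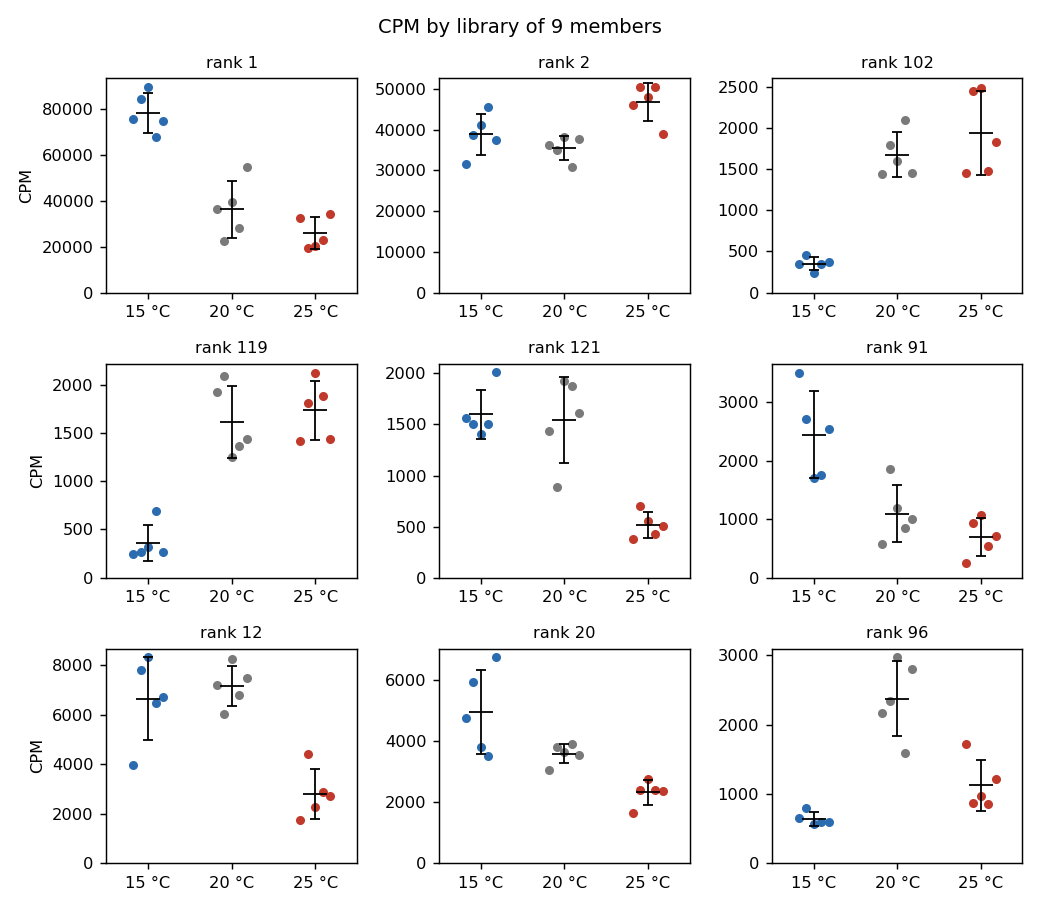
Each panel plots the CPM of 1 member in the 5 libraries of each temperature (points, 15 to 25 °C from left to right), with the mean and SD in black and an axis from 0. Ranks 102 and 119 stand at 243 to 692 CPM at 15 °C and at 1255 to 2486 CPM in the 10 other libraries, ranks 121 and 12 have their lowest means at 25 °C, and rank 96 is highest at 20 °C.

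The members that passed fell into a few courses. The same courses were not counted over all genes tested, so their frequency among the members cannot be set against a background. Higher at 20 and at 25 °C than at 15 °C, with no call between 25 and 20 °C, were 7 members, namely ranks 61, 68, 93, 99, 102, 114, and 119. Of these, all but ranks 61 and 68 had a mean under 1000 CPM at 15 °C (353 to 921 CPM), so their place among the members rests on the warmer libraries and the direction is in part fixed by the choice. Among them rank 99, a TACO model of 4884 bp on scaffold 527, had the smallest SE, with 1489, 1501, 1649, 1402, and 1563 CPM at 25 °C, against 916, 1089, 824, 882, and 893 CPM at 15 °C. Its 20 °C libraries had 1568, 1676, 1509, 1521, and 1558 CPM, and the 10 warmer libraries lay above all 5 at 15 °C without overlap. The log2 fold change was 0.64 ± 0.10 (SE, adjusted p = 0.000118) between 25 and 15 °C and 0.69 ± 0.10 (SE, adjusted p = 8.07e-05) between 20 and 15 °C. Rank 68, a TACO model of 4702 bp on scaffold 54, had 2658, 2200.1, 2402, 1783, and 2277 CPM at 25 °C, against 1053, 1311, 985, 1223, and 861 CPM at 15 °C, and 0.97 ± 0.18 (SE, adjusted p = 0.000435) as its log2 fold change. A further 11 members rose only in the comparison of 25 with 15 °C, with log2 fold changes of 0.36 (rank 106) to 0.56 (rank 36). Among them ranks 127, 130, 132, and 142 had a mean under 1000 CPM at 15 °C, with the same limit. The one of the 11 with the highest mean CPM was rank 14, a model of 1777 bp on scaffold 304. Rank 14 had 5576, 4899, 4967, 4627, and 4387 CPM at 25 °C, against 2798, 3349, 2989, 3501, and 3156 CPM at 15 °C, without overlap, with a log2 fold change of 0.54 ± 0.13 (SE, adjusted p = 0.00446).

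Rank 96 was the 1 member that passed in all 3 comparisons and was highest at 20 °C. This JGI model of 381 coding bp on scaffold 18 (976820 to 977949, plus strand) had 644, 797, 559, 585, and 588 CPM at 15 °C, 2167, 2341, 2975, 1595, and 2798 CPM at 20 °C, and 1724, 871, 961, 847, and 1210.0 CPM at 25 °C. All 15 °C libraries were below the rest, and 1 library at 25 °C reached into the range of 20 °C. Each 15 °C library was under 1000 CPM, so the place of rank 96 rests on the warmer libraries and its rise is in part fixed by the choice. The log2 fold change was 1.84 ± 0.21 (SE, adjusted p = 3.80e-06) between 20 and 15 °C and -1.10 ± 0.20 (SE, adjusted p = 0.00377) between 25 and 20 °C. Ranks 81 and 111, long models of 20794 and 11245 bp, were higher at 20 than at 15 °C and lower at 25 than at 20 °C. Rank 81 had 1683, 1943, 2159.7, 1939, and 1676 CPM at 20 °C, against 1429.8, 1371, 1235, 1002, and 1506 CPM at 15 °C, and 1287, 1295, 1612, 1132, and 1424 CPM at 25 °C. Between 25 and 15 °C its log2 fold change was -0.03 ± 0.13 (SE, adjusted p = 0.878) and that of rank 111 was 0.05 ± 0.19 (SE, adjusted p = 0.875).

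Lower at each step of temperature in all 3 tests was 1 member, rank 20, a model of 11957 bp on scaffold 166 (62944 to 84185, minus strand). It had 4747, 5933, 3796, 3505, and 6764 CPM at 15 °C, 3059, 3788, 3636, 3903, and 3541 CPM at 20 °C, and 1642, 2404, 2756, 2394, and 2350.2 CPM at 25 °C. The 25 °C libraries lay below all the others, and those at 20 °C overlapped with 15 °C. The log2 fold change was -1.17 ± 0.17 (SE, adjusted p = 3.05e-05) between 25 and 15 °C and -0.65 ± 0.16 (SE, adjusted p = 0.0316) between 25 and 20 °C. Ranks 1, 9, 91, 133, and 144 were lower at both 20 and 25 °C than at 15 °C. Ranks 12, 15, 121, and 124 were lower at 25 °C than at both 15 and 20 °C. Among them ranks 91, 121, 124, 133, and 144 had a mean under 1000 CPM at 25 °C, so their direction is in part fixed by the choice. Of these, rank 133, a model of 5091 bp on scaffold 89, had 816, 879, 878, 973, and 914 CPM at 25 °C, against 1290.4, 1297, 1311, 1644, and 1652 CPM at 15 °C, without overlap. Its log2 fold change was -0.78 ± 0.13 (SE, adjusted p = 0.000169) between 25 and 15 °C and -0.47 ± 0.13 (SE, adjusted p = 0.0152) between 20 and 15 °C. Rank 124, of 469 bp on scaffold 16, had 958, 941, 949.6, 1167, and 916 CPM at 25 °C, against 1648, 1331, 1304, 1196, and 1226 CPM at 20 °C, with a log2 fold change of -0.45 ± 0.12 (SE, adjusted p = 0.0399). Another 11 members passed only as lower at 25 than at 15 °C, with log2 fold changes of -0.74 (rank 63) to -0.37 (rank 131), and rank 94 only as lower at 20 than at 15 °C. Rank 143, 1 of these 11, also had a mean under 1000 CPM at 25 °C.

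Ranks 12 and 15 moved alike across the libraries. Rank 12, a model of 3426 bp on scaffold 47 (194478 to 205626, minus strand), had 1746, 4422, 2253, 2884, and 2695 CPM at 25 °C, against 7202, 6042, 8252, 6819, and 7501 CPM at 20 °C. At 15 °C it had 3961, 7806, 8332, 6470.2, and 6699 CPM, with library 1 lowest and below the highest library at 25 °C. Rank 15, of 837 bp on the small scaffold 2513, had 1222, 3675, 1619, 2063, and 1769 CPM at 25 °C, against 4752, 4065, 5318, 4351, and 5454 CPM at 20 °C. In both members library 2 was the highest at 25 °C and library 1 the lowest. The log2 fold change between 25 and 20 °C was -1.36 ± 0.24 (SE, adjusted p = 0.00300) for rank 12 and -1.22 ± 0.28 (SE, adjusted p = 0.0197) for rank 15. The ratio of their TPM, rank 12 over rank 15, stayed between 0.294 and 0.395 in all 15 libraries. Whether the 2 models are near-identical copies that share reads was not tested, since their sequences were not analyzed here. Reads that map to both would be left out by the default counting, so the level of each and their ratio are uncertain.

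A second set of like models was ranks 23, 24, and 33, on scaffolds 61, 53, and 3. They have 61, 65, and 65 exons and coding lengths of 4347, 4203, and 4422 bp. Rank 23 had 2542, 2160.5, 2994, 2247, and 3797 CPM at 25 °C, against 5447, 4170.4, 3186, 3259, and 4296 CPM at 15 °C. At 20 °C it had 3053, 2557, 2939, 5839, and 2955 CPM, and library 4 lay far above the others there. The same library was the highest at 20 °C in ranks 24 and 33. The log2 fold change between 25 and 15 °C was -0.64 ± 0.20 (SE, adjusted p = 0.0193) for rank 23, -0.55 ± 0.19 (SE, adjusted p = 0.0350) for rank 24, and -0.62 ± 0.20 (SE, adjusted p = 0.0229) for rank 33, and the 2 temperatures overlapped in each. Ratios of their TPM were narrow, at 0.896 to 1.04 for rank 23 over rank 24 and 1.52 to 1.70 for rank 23 over rank 33.

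Ranks 2 and 6 lie side by side on scaffold 383, on the same strand with 3922 bp between them and no model in the gap. Both have 5 exons and a coding length of 519 bp, as does rank 9 on scaffold 332. The TPM of rank 2 was 3.89 ± 0.115 times that of rank 6 at 15 °C, 4.51 ± 0.480 times at 20 °C, and 5.31 ± 0.332 times at 25 °C (SD, n = 5 each), and the ratios at 25 and 15 °C did not overlap. Relative to rank 9 the ratio of rank 2 was 4.16 ± 0.105 at 15 °C, 5.17 ± 0.418 at 20 °C, and 6.21 ± 0.555 at 25 °C. Ratios within a library do not depend on the scaling of its total. Rank 9 fell between 20 and 15 °C, with a log2 fold change of -0.52 ± 0.15 (SE, adjusted p = 0.0213), and between 25 and 15 °C, with -0.41 ± 0.15 (SE, adjusted p = 0.0493). Rank 6 had -0.42 ± 0.17 (SE, adjusted p = 0.0824) between 20 and 15 °C, which did not pass. Whether these models share reads was not tested.

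The other close neighbors were ranks 7 and 11 on scaffold 42, on the same strand with 5324 bp between them. Rank 7, of 2449 bp, had 5005, 5853, 5736, 5192, and 6309 CPM at 25 °C, against 7799, 10899, 6285, 4853, and 9114 CPM at 15 °C. Rank 11, of 705 bp, had 5365, 5388, 4619, 4305, and 5211 CPM at 25 °C, against 6118, 8426, 5063, 4008, and 6982 CPM at 15 °C. In both, libraries 2 and 5 were the highest at 15 °C and libraries 3 and 4 the lowest. The log2 fold change between 25 and 15 °C was -0.54 ± 0.18 (SE, adjusted p = 0.0247) for rank 7 and -0.36 ± 0.16 (SE, adjusted p = 0.0801) for rank 11, of which only the first passed. The difference between the 2 members was not tested. Ranks 3 and 4, both on scaffold 278, were farther apart, with 74303 bp between them.

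Several of the most abundant members varied little. Rank 3, a model of 2479 bp on scaffold 278 (292519 to 301159, plus strand), had 16337, 18297, 15698, 19204, and 17494 CPM at 15 °C, 14972, 19503, 18507, 18316, and 17914 CPM at 20 °C, and 18664, 18721, 18626, 15944, and 16070.2 CPM at 25 °C. Its log2 fold change between 25 and 15 °C was -0.07 ± 0.14 (SE, adjusted p = 0.744). Rank 4 had 0.08 ± 0.14 (SE, adjusted p = 0.691), rank 5 0.05 ± 0.13 (SE, adjusted p = 0.792), and rank 13 0.07 ± 0.14 (SE, adjusted p = 0.738) in the same comparison. The short single-exon model at rank 16 had -0.14 ± 0.14 (SE, adjusted p = 0.476). None of these 5 passed in any comparison, and each overlapped between temperatures. Ranks 1 to 5 were the 5 members that stayed among the 10 genes with the most counts in every library, without regard to length.

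Within a temperature the members were about as steady as the genes of the next class. The SD of log2 CPM, averaged over the 3 temperatures, had a median of 0.17 over the members, from 0.06 at rank 113 to 0.63 at rank 91, and was under 0.25 in 113 of them. The median of the genes of 100 to 1000 CPM was 0.18. By temperature the median SD of the members was 0.22 at 15 °C, 0.15 at 20 °C, and 0.15 at 25 °C, and it was 0.22 at 15 °C in the next class too. Over the 3 libraries at 15 °C other than 3 and 4 the median SD of the members was 0.08. The highest temperature mean of a member was under 1.25 times its lowest in 63 members, 1.25 to 1.5 times in 61, 1.5 to 2 times in 11, and at least 2 times in 11. The mean CPM was highest at 25 °C in 102 members, at 15 °C in 24, and at 20 °C in 20. These counts use the library total as the only scaling. Under it the median log2 fold change of all genes tested was 0.08 between 25 and 15 °C. The same counts over all genes, or without 15 °C libraries 3 and 4, were not made.

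The 99 JGI members held 31.1% ± 2.1 of the counts at 15 °C, 27.5% ± 1.60 at 20 °C, and 28.8% ± 1.13 at 25 °C (SD, n = 5 each), with rank 1 among them, and 29.8% ± 1.51 at 15 °C without libraries 3 and 4 (SD, n = 3). The 47 TACO members held 12.2% ± 0.569 at 15 °C, 12.6% ± 0.813 at 20 °C, and 12.4% ± 0.608 at 25 °C, with overlapping ranges. Between 25 and 15 °C 20 of the 47 TACO members passed, 8 as higher and 12 as lower (42.6%, against 32.2% of the 5966 TACO models tested), and 20 of the 99 JGI members, 11 as higher and 9 as lower (20.2%, against 31.4% of the 11852 JGI models tested). Without libraries 3 and 4 at 15 °C 18 TACO members were higher and 12 lower (63.8%, against 33.4%), and 66 JGI members were higher and 8 lower (74.7%, against 33.2%), so the order of the 2 sources turned round. The median log2 fold change was 0.08 over the TACO members and 0.17 over the JGI members, or 0.28 and 0.42 without that pair, and the difference between the 2 sources was not tested.

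The members were also described by their exon length. The 67 members under 1000 bp had a median log2 fold change of 0.17 between 25 and 15 °C, and 2 passed as higher (2.99%) and 4 as lower (5.97%), against 14.1% and 13.5% of the 6870 genes tested of that length, whose median was 0.03. Of the 33 members of 1000 to under 2000 bp, 8 rose (24.2%) and 2 fell (6.06%), with a median of 0.19, against 16.8%, 14.8%, and 0.03 over 5491 genes. Of the 28 of 2000 to under 5000 bp, 6 rose (21.4%) and 7 fell (25.0%), with a median of 0.02, against 15.0%, 20.5%, and -0.03 over 4324 genes. Of the 18 of at least 5000 bp, 3 rose (16.7%) and 8 fell (44.4%), with a median of -0.20, against 10.9%, 31.0%, and -0.12 over 1133 genes. The members are included in each of these backgrounds. Without libraries 3 and 4 at 15 °C the picture of the short members was another one. Then 48 of the 67 under 1000 bp were higher (71.6%) and 4 lower at 25 °C, against 17.2% higher and 12.9% lower over all genes of that length, with medians of 0.42 and 0.07. In the class of 1000 to under 2000 bp 24 were higher (72.7%) and 1 lower (3.03%), against 18.6% and 13.5% of all genes of that length. The medians were 0.48 and 0.05. In the class of 2000 to under 5000 bp 8 were higher (28.6%) and 7 lower (25.0%), against 14.7% and 21.5%, with medians of 0.15 and -0.04. In that of at least 5000 bp 4 were higher (22.2%) and 8 lower (44.4%), against 8.74% and 37.9%, with medians of -0.18 and -0.19. The bounds of these classes were chosen after the values were seen.

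**Figure D4:**
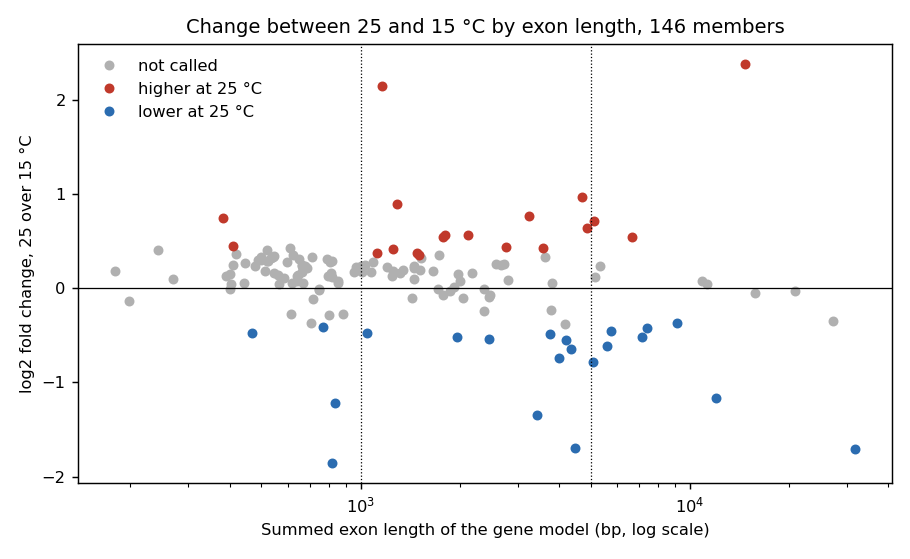
Each point is 1 of the 146 members, with the summed exon length of its model (bp, log axis) on the horizontal axis and its log2 fold change between 25 and 15 °C on the vertical axis, and dotted lines at 1000 and 5000 bp. With all 15 libraries, most members under 1000 bp lie in a narrow band around their median of 0.17 without a call. Of the 18 members of at least 5000 bp, 8 were called lower at 25 °C (44.4%, against 31.0% of all genes tested of that length).

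The libraries that stood apart at 15 °C differed along the same axis. Both lay above the other three 15 °C libraries in 59 of the 67 members under 1000 bp (88.1%, against 12.1% of all genes tested of that length), and below them in 21 of the 46 members of at least 2000 bp (45.7%, against 54.6%). The short members together held 14.0, 15.9, 18.1, 19.1, and 15.4% of the counts in the 15 °C libraries. They held 15.4, 17.2, 17.7, 15.2, and 16.6% in the 20 °C libraries and 18.6, 20.1, 18.7, 19.3, and 15.9% in the 25 °C libraries. Libraries 3 and 4 at 15 °C thus lay within the range of 25 °C, and the other three lay below all 5 of its libraries, library 2 only just. The 33 members of 1000 to under 2000 bp held 6.75% ± 0.805 at 15 °C, 7.40% ± 0.408 at 20 °C, and 8.23% ± 0.461 at 25 °C (SD, n = 5 each). Without libraries 3 and 4 the 15 °C means were 15.1% ± 0.985 for the short members and 6.23% ± 0.290 for those of 1000 to under 2000 bp (SD, n = 3). The 45 members of at least 2000 bp other than rank 1 held 12.2% ± 0.760 at 15 °C, 12.6% ± 0.917 at 20 °C, and 11.8% ± 0.498 at 25 °C, which overlapped. In 96 of the 146 members (65.8%) the other three libraries at 15 °C lay below every library at 25 °C, against 17.8% of all genes tested. These 3 libraries are the ones left after the pair with high values was taken out, which favors such a separation in the members. What set libraries 3 and 4 apart was not tested.

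**Figure D5:**
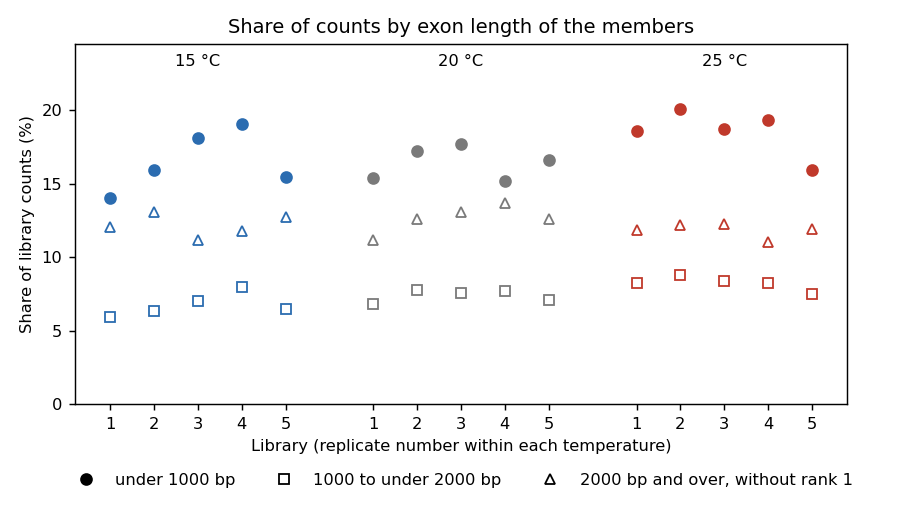
Points give the share of a library's counts (%) held by the members of under 1000 bp of exon (filled circles), of 1000 to under 2000 bp (squares), and of at least 2000 bp without rank 1 (triangles), by library and temperature. At 15 °C the filled circles of libraries 3 and 4 (18.1% and 19.1%) lie above those of the other three (14.0% to 15.9%) and inside the range of the 25 °C libraries (15.9% to 20.1%).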

How the data were processed

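RNA-seq counts were analyzed for 15 libraries, 5 from each of 3 culture temperatures. The authors deposited whole-number counts of fragments per gene model, without normalization, with 2 columns per library whose meaning the labels do not give. The columns were treated as 2 runs of 1 library and summed, and every column was matched to a library by the name in the sample's description. Default settings of FeatureCounts, after trimming and hisat2 alignment, are given in the study's methods, and the submitters' processing notes list Trimmomatic 0.38, HISAT2 2.1.0, StringTie 2.0, and featureCounts. The study's tables name Ensembl Metazoa as the source of the Nematostella genome without an assembly name, nothing ties these counts to it, and scaffold positions are those of the deposited gene models. By default, featureCounts leaves out reads that map to several places or overlap several genes, which lowers the counts of such members. The table held no columns of the authors' comparisons.

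CPM was computed by the library total and TPM by the summed exon length, in Python 3.11.15 with pandas 2.3.3. The test between temperatures was the quasi-likelihood F-test of edgeR 4.0.16 (R 4.3.3) with robust fitting to all 15 libraries, TMM factors, and filterByExpr (17818 genes kept, all 146 members among them), with Benjamini-Hochberg adjusted p under 0.05 called. SEs were derived from the fold change and its F value. The fitting script was tested on simulated data. Alternatives were DESeq2 1.42.0, limma-voom (limma 3.58.1), other normalizations, filters, and thresholds, each column alone, only the 10 libraries compared, a replicate block, and each library left out in turn. The smallest total, 3526175 counts, sets the lowest precision.

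Members and lists were chosen with earlier results of these data known. Identifiers were printed for the 2 largest rises and 2 largest falls among members called between 25 and 15 °C. All other members are called by rank, and those described were picked after their values were seen, for their level, course, or position. Lists of function classes and cell type markers, planned by words in product names, could not be applied without names.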

Additional observations from a re-analysis of the deposited data

Results flagged for a closer look

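In 10 of the 114 groups of 5 libraries examined, 1 library lay far above the other 4 by Dixon's criterion at 95%, where chance alone flags about 1 group in 20 (5.7 of 114). At 20 °C library 4 had 5839 CPM of rank 23, 5696 CPM of rank 24, and 4625 CPM of rank 33, against 2557 to 3053, 2547 to 3285, and 2021 to 2593 CPM in the other libraries of that temperature. These 3 members are the models of 61 and 65 exons described above, so they share 1 library and are not 3 separate cases. At 20 °C library 1 had 3051 CPM of rank 93, against 1245 to 1682 CPM in the others, and library 5 had 1070.4 CPM of rank 144, against 878 to 925 CPM. At 15 °C library 4 had 5302 CPM of rank 13, against 4170.2 to 4229 CPM, and 692 CPM of rank 119, against 247 to 321 CPM. Library 4 is one of the pair that stood apart at 15 °C. At 15 °C library 5 had 2015 CPM of rank 121, against 1404 to 1559 CPM. At 25 °C library 1 had 2961 CPM of rank 61, against 2103 to 2337 CPM, and library 4 had 1167 CPM of rank 124, against 916 to 958 CPM. What set these libraries apart was not tested.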

How the results depend on the processing

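The number of members was 252 at a threshold of 500 CPM and 52 at 2000 CPM, and 145 to 148 with 1 library left out. At 15, 20, and 25 °C their mean share of counts was 50.5%, 47.8%, and 48.8% at the threshold of 500, 31.1%, 26.6%, and 26.9% at 2000, 35.4%, 36.4%, and 38.6% without rank 1, and 40.7%, 36.9%, and 38.2% for members over 1000 CPM at every temperature. As a share of TPM it was 43.4% at 20 °C and 45.3% at 25 °C. With 1 library left out the shares ran from 42.7% to 44.2%, 39.5% to 40.8%, and 40.7% to 41.8%. Between 25 and 15 °C 40 members passed by edgeR (27.4%, against 31.7% of all genes tested). When the log2 fold change had to reach 1 in size 8 did, beside 1249 of all 17818 genes tested. With the library total as the only scaling 73 passed (50%, against 30.5%). With 1 library left out it was 30 to 66 (66 without 15 °C library 4, 45.2% against 34.4%). Without 15 °C libraries 3 and 4 it was 104 (71.2%, against 32.9%), a setting chosen after seeing the data. Between 20 and 15 °C 17 passed, 6 of them with that fold change, and 14 to 19 with 1 library left out. Between 25 and 20 °C 8 passed (5.48%, against 3.68%), 4 with that fold change, beside 177 of all genes tested. From the second column alone 4 passed, and 3 to 9 with 1 library left out. It was 9 without 15 °C library 4 (6.16%, against 4.65%), 3 without 25 °C library 5, and 4 without 25 °C library 2 or 20 °C library 2 or 5. It was 5 without 25 °C library 4 or 20 °C library 3 or 4. Shares of all genes for the other left-out libraries are not given here. Rank 121, which did not pass between 20 and 15 °C (-0.11), had 0.0393 without 20 °C library 2, with -0.23 to 0.04 over the left-out libraries. Rank 91 lost its call between 20 and 15 °C under 8 settings, 6 of which left out 1 library, with log2 fold changes of -1.02 to -1.19. The cause of these changes was not tested. Library numbers recur across temperatures, but the labels do not say that a number pairs libraries. Same-numbered libraries correlated at -0.14 to 0.42 in their deviations from the temperature means, over 0.1 in 7 of 15 pairs, and 3 of 15 libraries correlated best with their own number. With a replicate block 43 members passed between 25 and 15 °C, 23 higher and 20 lower (29.5%, against 33.1% of all genes tested). Between 20 and 15 °C 18 passed (12.3%, against 19.9%), and between 25 and 20 °C 8 did (5.48%, against 4.15%). Every other alternative left the counts within 1.5 times.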
